A study of Mus musculus with 4 samples.

Results

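Planar cell polarity is the alignment of cells within the plane of a sheet, and 9 of its genes were examined in lymphatic endothelial cells of the newborn mouse lung. The 9 were chosen by name as core or associated planar polarity genes, Celsr1, Celsr2, Vangl1, Vangl2, Prickle1, Prickle2 and Ptk7, and as the cadherin pair Fat4 and Dchs1. Each had 1 row among the 24421 rows of the deposited count table, and 9 of the 9 passed the filter on low counts.

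In the core system, Celsr cadherins bind each other across cell borders, while Vangl with Prickle and Frizzled with Dishevelled gather on opposite sides of each cell. Fat4 and Dchs1 form a second system, in which the cadherin Fat4 on a cell binds the cadherin Dchs1 on its neighbour. In mice, Celsr1, Vangl2 and Fat4 are known for roles in lymphatic valves, where leaflet cells turn and align across the vessel.

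Cells were sorted from lungs at postnatal day 0 as CD45-negative (no leukocyte surface protein), CD31-positive (an endothelial surface protein) and GFP-positive. The Jun-cKO group came from Prox1-CreER;Junf/f;Rosa26-mTmG mice and the Jun-Ctrl group from Prox1-CreER;Junf/+;Rosa26-mTmG mice. Animals of both groups therefore carried a tamoxifen-dependent Cre driven by Prox1, a gene of lymphatic endothelium, a reporter that turns green once Cre has acted, and at least 1 floxed Jun allele, so the controls can lose 1 copy of Jun. From 3 to 5 mice were pooled per group, and a group is represented by 2 libraries (n = 2 for every mean below). The library whose title has the word replicate is named replicate 2, and the other replicate 1. The sources used here do not tie these libraries to separate animals, so p-values reflect variation from library to library that may be no more than technical.

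Total counts were 15558476 and 6911821 in the Jun-cKO libraries and 16037416 and 6483514 in the Jun-Ctrl libraries. Genes with a count numbered 14928 and 14186 in the Jun-cKO libraries, against 16297 and 15156 in the Jun-Ctrl libraries. The part of this difference in the low counts of single genes below was not tested. Jun itself, the gene targeted, stood at 524 and 475 CPM (counts scaled to library size by the TMM method) in the Jun-cKO libraries, against 472 and 433 CPM in the Jun-Ctrl libraries. It was not lower (log2 fold change 0.14, SE 0.12; adjusted p = 0.354 from the edgeR quasi-likelihood F-test, adjusted over all tested genes by the Benjamini-Hochberg method), and after a correction for GC content it passed as higher (adjusted p = 0.00382), so the first group is called Jun-cKO-labelled and each direction below rests on that label. Lymphatic markers were abundant, led by Lyve1 and Mmrn1. Over 8 genes they summed to 18240 and 18800 CPM in Jun-cKO-labelled libraries, against 14150 and 13030 CPM in Jun-Ctrl libraries. Among these 8, Ccl21a had 0 counts in every library. Of 7 tested, 3 were called higher, against 19.0% of all tested genes, and Flt4 was called lower (log2 fold change -0.60). Prox1 was not called (-0.31, adjusted p = 0.0686 by edgeR). Markers of other lung cells were present and differed between the groups, where 22.5% of all tested genes were called lower. Of 18 tested epithelial markers, led by Sftpc and Ager, 17 were lower, with a summed 210 and 203 CPM in Jun-cKO-labelled and 1818 and 1922 CPM in Jun-Ctrl libraries. Of 12 tested mesenchymal markers, led by Col1a2 and Col3a1, 8 were lower, with 108 and 116 CPM in Jun-cKO-labelled and 339 and 341 CPM in Jun-Ctrl libraries, and Des was at 0 in both Jun-cKO-labelled ones. Of 9 tested immune markers, led by S100a9 and S100a8, 8 were lower, with 206 and 185 CPM in Jun-cKO-labelled and 472 and 464 CPM in Jun-Ctrl libraries, with Cd3e at 0 in every library and Cd79a at 0 in both Jun-cKO-labelled ones. In bulk RNA, fewer cells of a type and less RNA per cell cannot be told apart. The part of these other cells in the results below was not tested.

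The comparison of Jun-cKO-labelled with Jun-Ctrl cells asks which of these polarity genes differ in newborns whose Jun genes are both open to Cre, set against newborns with a single floxed copy. Dchs1 fell 1.82-fold, to 21.6 ± 0.739 CPM in Jun-cKO-labelled cells, against 39.8 ± 7.95 CPM in Jun-Ctrl cells (mean ± SD, n = 2 each). Celsr2 fell and Ptk7 rose, both at very low counts. Celsr1, Vangl1, Vangl2, Prickle1, Prickle2 and Fat4 did not pass the test. That made 3 of 9 genes called at an adjusted p under 0.05, against 41.5% of all 12656 tested genes, with 1 gene higher (background 19.0%) and 2 lower (background 22.5%), so the share called was not above the background. The median log2 fold change of the 9 was -0.03, and that of all tested genes was 0.005. The groups did not overlap in CPM for 7 of the 9, against 71.3% of all tested genes.

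**Figure D1:**
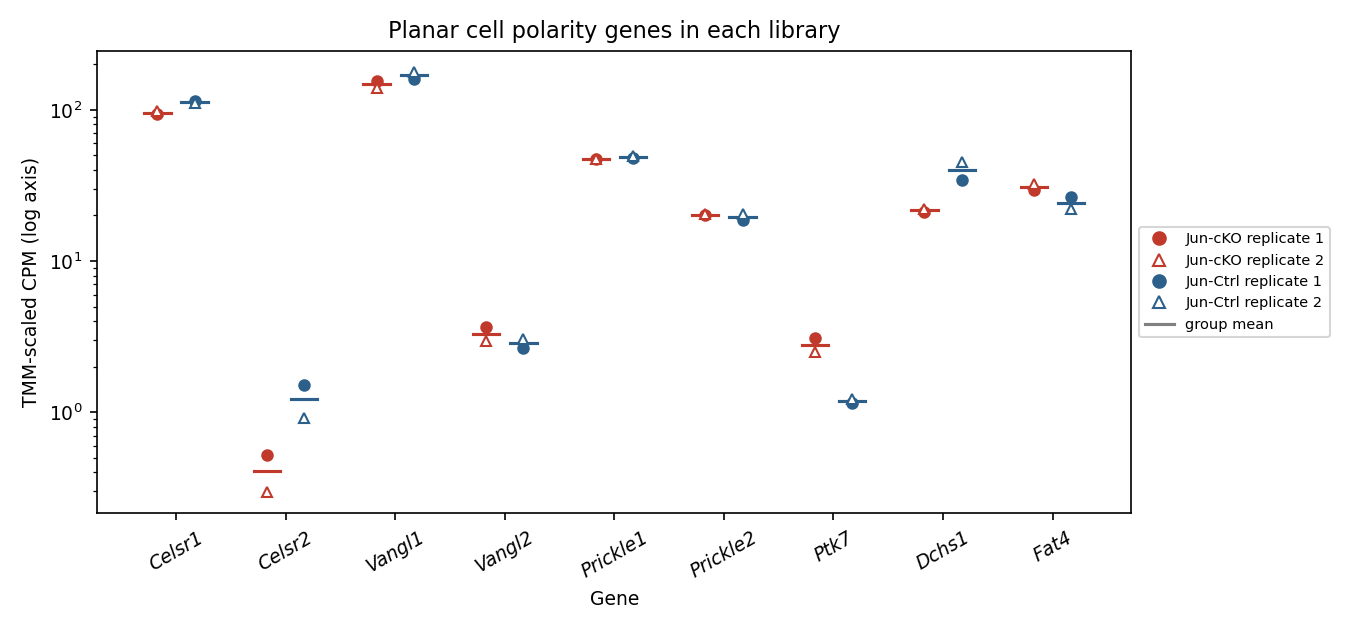
TMM-scaled CPM (log axis) of the 9 planar polarity genes in each library, with Jun-cKO-labelled libraries in red and Jun-Ctrl libraries in blue, filled circles for replicate 1, open triangles for replicate 2 and a bar for each group mean. Dchs1 lies at 21.1 and 22.2 CPM in Jun-cKO-labelled libraries and at 34.2 and 45.4 CPM in Jun-Ctrl libraries, while Prickle1 lies between 47.4 and 49.4 CPM in all 4.

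Levels between genes were compared per length, as TPM, which divides counts by the gene length in the authors' table. Vangl1 was the highest of the 9, at 62.3 ± 4.60 TPM in Jun-cKO-labelled and 75.2 ± 2.20 TPM in Jun-Ctrl libraries (mean ± SD, n = 2 each), above 87.1% of all genes with a count. Prickle1 came next, at 20.7 ± 0.212 TPM in Jun-cKO-labelled and 22.3 ± 0.494 TPM in Jun-Ctrl libraries. Celsr1 followed, at 15.4 ± 0.391 TPM in Jun-cKO-labelled and 19.2 ± 1.28 TPM in Jun-Ctrl libraries. The ranges of these 3 genes did not overlap within either group. Below them Dchs1, Prickle2, Fat4 and Vangl2 lay between 2.29 and 7.74 TPM, then Ptk7 between 0.522 and 1.30 TPM and Celsr2 between 0.0497 and 0.278 TPM.

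The middle of this order was not the same in the groups. In Jun-cKO-labelled libraries Prickle2, at 4.16 ± 0.00612 TPM, stood above Dchs1, at 3.62 ± 0.0967 TPM, and Fat4, at 3.41 ± 0.213 TPM, and the ranges of the last pair overlapped. In Jun-Ctrl libraries Dchs1, at 6.98 ± 1.08 TPM, stood above Prickle2, at 4.21 ± 0.0618 TPM. Fat4, at 2.82 ± 0.482 TPM there, and Vangl2, at 2.37 ± 0.121 TPM, differed by less than the SD of Fat4.

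Within each paralogue pair the libraries agreed on the more abundant member. Vangl1 made up 95.7% and 96.2% of the Vangl TPM in Jun-cKO-labelled and 97.0% and 96.9% in Jun-Ctrl libraries. Celsr1 held at least 98.6% of the summed TPM of Celsr1 and Celsr2 in every library, and Prickle1 held 83.2% to 84.5% of the summed Prickle1 and Prickle2 TPM. The table gives Vangl2 a length of 2260 bases and Vangl1 4214, while the exons of their GENCODE M21 models cover 6990 and 7156 bases. The order of the 9 by their mean over the 4 libraries was the same with the GENCODE lengths, a check chosen after seeing the data, although the ratio between genes moves with the length used. The RNA was amplified before sequencing and coverage along the transcripts is not in the table, so whether long genes such as Fat4 are understated per length was not tested.

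Dchs1 and Fat4 are the ligand and receptor pair. Dchs1 encodes a giant cadherin on chromosome 7 (105752990 to 105787654, minus strand, GRCm38, the build that mm10 names), with 20 exonic blocks in GENCODE M21. It had 322 and 150 counts in the Jun-cKO-labelled libraries, against 564 and 297 counts in the Jun-Ctrl libraries, which is 21.1 and 22.2 CPM against 34.2 and 45.4 CPM. Both Jun-cKO-labelled libraries lay below both Jun-Ctrl libraries. The log2 fold change was -0.86 (SE 0.16, 95% interval -1.18 to -0.55, adjusted p = 1.58e-05 by edgeR), and 13.4% of tested genes had a lower one. Within the replicate 1 pair the log2 ratio was -0.70 and within the replicate 2 pair -1.04, each with a counting interval below 0.

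The call of Dchs1 held under each of 13 alternatives that refitted the counts at the same threshold, with adjusted p from 3.11e-07 to 0.018. It did not meet a minimum log2 fold change of 1, which is a stricter rule for a call rather than a refit and is not among the 13. Its size did not, because a correction for GC content brought the log2 fold change to -0.44, and to -0.42 with the replicate block. Dchs1 has a GC content of 58.5% in its longest transcript, against a median of 49.7% over tested genes, and across 12188 tested genes, which are not independent replicates, higher GC content went with a lower log2 fold change (rho = -0.338, Spearman). An opposite-strand pseudogene, Gm15645, shares 648 exonic bases with Dchs1, and its own row had 0 counts in every library. Without strand, that 0 does not settle whether the overlap alters the count of Dchs1, which was not tested. Epithelial, mesenchymal and immune markers were lower in the same libraries, as given above.

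Fat4, the receptor, stands on chromosome 3 (38886940 to 39011985, plus strand, GRCm38). It had 447 and 219 counts in the Jun-cKO-labelled libraries, against 434 and 144 in the Jun-Ctrl libraries, or 29.3 and 32.3 CPM against 26.3 and 22.0 CPM. The Jun-cKO-labelled libraries lay above the Jun-Ctrl ones, by little in the replicate 1 pair (log2 ratio 0.15) and by more in the replicate 2 pair (0.55). The fold had a 95% interval from 1.01 to 1.55, which unlike the p-value below is not adjusted over all tested genes. The log2 fold change of 0.32 (SE 0.16, adjusted p = 0.088 by edgeR) did not pass. It passed under 1 of 13 alternatives, the GC correction with the replicate block (adjusted p = 0.0402, against a range of 0.0402 to 0.46). Antisense transcript C230034O21Rik shares 1209 exonic bases with Fat4, and without strand its reads cannot be told apart from those of Fat4.

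Dchs1 was more abundant than Fat4 per length in every library, by a margin that differed between the groups. The ratio of Dchs1 to Fat4 TPM was 1.09 and 1.04 in the Jun-cKO-labelled libraries, against 1.97 and 3.12 in the Jun-Ctrl libraries. This ratio, chosen after the values were seen, needs no scaling of libraries, and the groups did not overlap in it. It was not corrected for GC content, which is 58.5% for Dchs1 and 50.4% for Fat4. With GC correction the log2 fold changes were -0.44 for Dchs1 and 0.33 for Fat4, against -0.86 and 0.32 without it. With 2 libraries against 2, an exact two-sided permutation test gives p = 0.333, the smallest it allows.

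**Figure D2:**
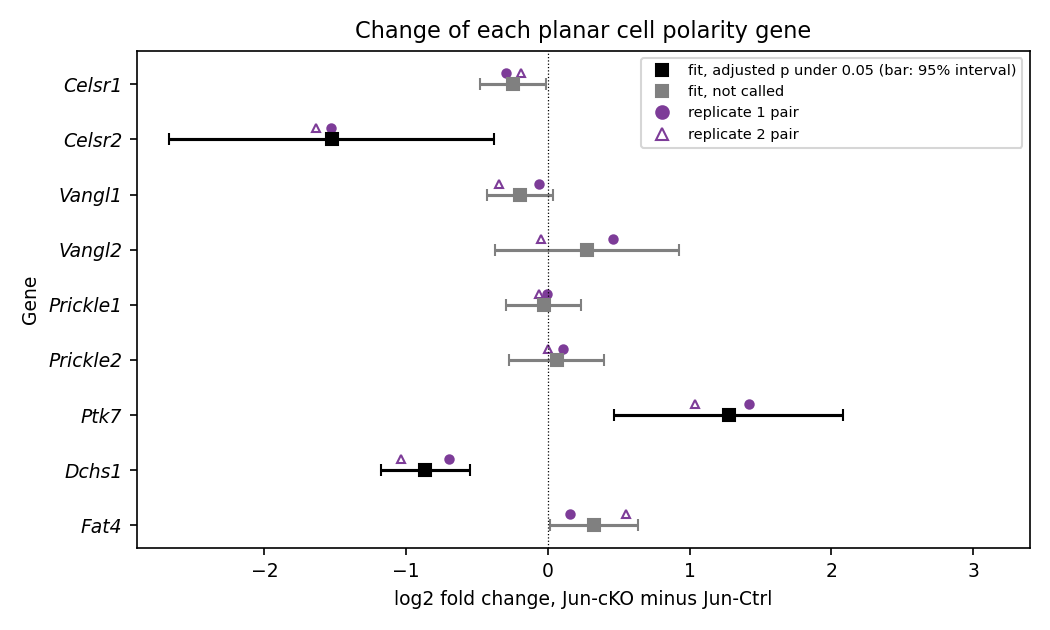
log2 fold change of each gene, Jun-cKO-labelled minus Jun-Ctrl, from edgeR (squares, with 95% intervals, black where the adjusted p was under 0.05 and grey where not), with the log2 CPM ratio within the replicate 1 pair (filled circles) and the replicate 2 pair (open triangles) just above. Dchs1, at -0.86, and Celsr2, at -1.53, were called lower and Ptk7, at 1.28, higher, and the interval of Celsr2 is the widest of the 9.

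Celsr1 and Celsr2 encode the atypical cadherins that join the core complexes of neighbouring cells. Celsr1, on chromosome 15 (85898929 to 86033777, minus strand), had 93.4 and 97.9 CPM in Jun-cKO-labelled libraries, from 1426 and 663 counts. In the Jun-Ctrl libraries it had 115 and 112 CPM, from 1894 and 729 counts. All of the Jun-cKO-labelled values were below the Jun-Ctrl values, yet the log2 fold change of -0.25 (SE 0.12, adjusted p = 0.0836 by edgeR) did not pass. The 95% interval of its fold, which unlike the p-value is not adjusted over all tested genes, was 0.717 to 0.992. After GC correction the log2 fold change was 0.19 and again did not pass (adjusted p = 0.167). With library totals, upper-quartile scaling or a filter of 50 counts it passed as lower (adjusted p = 0.0362, 0.0473 and 0.0473, against a range of 0.0362 to 0.259 over 13 alternatives).

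Celsr2, on chromosome 3 (108390851 to 108415552, minus strand), was close to the detection floor. It had 8 and 2 counts in the Jun-cKO-labelled libraries, against 25 and 6 counts in the Jun-Ctrl libraries, and 3 counts equal 0.197 and 0.443 CPM in the Jun-cKO-labelled and 0.182 and 0.459 CPM in the Jun-Ctrl libraries. The ratio of summed counts was 0.337, with an exact binomial interval of 0.147 to 0.706 that covers counting error only. The counting interval of the log2 ratio was -2.89 to -0.34 within the replicate 1 pair and -4.98 to 0.85 within the replicate 2 pair. On the log2 scale Celsr2 fell by 1.53 in edgeR's fit (SE 0.57, adjusted p = 0.0273). The call held in 4 of the 11 alternatives that gave a value and ended in 7, among them DESeq2 (adjusted p = 0.305), no filter (0.0543) and the GC correction (0.112), against a range of 0.0232 to 0.305. Without Jun-cKO-labelled replicate 1 or 2 it ended at 0.101 or 0.112 and without Jun-Ctrl replicate 2 at 0.0712, and without Jun-Ctrl replicate 1 Celsr2 was not tested.

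Vangl1 and Vangl2 encode multi-pass membrane proteins that recruit Prickle. Vangl1, on chromosome 3 (102153583 to 102204693, minus strand), had 154 and 140 CPM in Jun-cKO-labelled libraries, against 160 and 178 CPM in the Jun-Ctrl libraries. The lower Jun-Ctrl library lay just above the higher Jun-cKO-labelled one, and the SD was 9.77 CPM in the Jun-cKO-labelled and 12.7 CPM in the Jun-Ctrl group. The change of -0.20 on the log2 scale (SE 0.12, adjusted p = 0.166 in edgeR) did not pass, and it passed in 1 of 13 alternatives, the GC correction with the replicate block (adjusted p = 0.0301, against a range of 0.0301 to 0.517).

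Vangl2, on chromosome 1 (172000960 to 172028444, minus strand), is the paralogue known for neural tube and lymphatic valve defects in mouse mutants. It had 56 and 20 counts in the Jun-cKO-labelled libraries and 44 and 20 in the Jun-Ctrl libraries, or 3.67 and 2.95 CPM against 2.67 and 3.06 CPM. The groups overlapped. The change of 0.27 on the log2 scale (SE 0.32, adjusted p = 0.522 in edgeR) came with an interval of the fold from 0.771 to 1.90, which spans 1.

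Prickle1 and Prickle2 encode the cytoplasmic partners of Vangl. Prickle1, on chromosome 15 (93499114 to 93595891, minus strand), had 47.6 and 47.4 CPM in Jun-cKO-labelled libraries, against 47.8 and 49.4 CPM in the Jun-Ctrl libraries. Prickle2, on chromosome 6 (92370908 to 92706155, minus strand), had 20.1 and 20.4 CPM in Jun-cKO-labelled libraries, against 18.7 and 20.4 CPM in the Jun-Ctrl libraries. Their log2 fold changes were -0.03 (SE 0.13, adjusted p = 0.873) and 0.06 (SE 0.17, adjusted p = 0.795 by edgeR). The fold intervals ran from 0.815 to 1.18 for Prickle1 and from 0.828 to 1.32 for Prickle2. Neither passed under any of 13 alternatives.

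Ptk7, on chromosome 17 (46564471 to 46629504, minus strand), encodes a pseudokinase receptor that acts with the core polarity proteins in vertebrate embryos. It had 47 and 17 counts in the Jun-cKO-labelled libraries, against 19 and 8 counts in the Jun-Ctrl libraries, or 3.08 and 2.51 CPM against 1.15 and 1.22 CPM. Both Jun-cKO-labelled libraries were above both Jun-Ctrl ones. The counting interval of the log2 ratio was 0.62 to 2.27 within the replicate 1 pair and -0.25 to 2.46 within the replicate 2 pair. The fold was 2.42 (log2 fold change 1.28, SE 0.40, adjusted p = 0.00886 by edgeR), higher than that of 98.5% of tested genes, and the ratio of summed counts was 2.48 with a counting interval of 1.56 to 4.04. Ptk7 has a GC content of 59.0%, and GC correction, which was fitted on genes more abundant than Ptk7, moved the log2 fold change to 1.69. The call ended in DESeq2 (adjusted p = 0.161) and without Jun-cKO-labelled replicate 1 (0.148), Jun-Ctrl replicate 1 (0.149) or Jun-Ctrl replicate 2 (0.0541), against a range of 0.000203 to 0.161 over 12 alternatives.

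The 250 bases before the annotated start are shown for the called members that the RefSeq promoter table holds (GRCm38.p6), because Jun is a subunit of AP-1 and these windows were searched for its motif on both strands. The first is chr3:108415580-108415829 and the second chr17:46629505-46629754, both minus strand and written 5′ to 3′. Capitals would mark a match to the AP-1 motif TGANTCA or to the related CRE motif TGACGTCA, and neither window holds one.
Celsr2: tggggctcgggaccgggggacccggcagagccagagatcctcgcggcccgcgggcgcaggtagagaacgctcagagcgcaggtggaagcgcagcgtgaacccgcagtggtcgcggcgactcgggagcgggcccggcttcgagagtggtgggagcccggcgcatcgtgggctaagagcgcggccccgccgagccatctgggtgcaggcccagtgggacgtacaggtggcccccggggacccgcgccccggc
Ptk7: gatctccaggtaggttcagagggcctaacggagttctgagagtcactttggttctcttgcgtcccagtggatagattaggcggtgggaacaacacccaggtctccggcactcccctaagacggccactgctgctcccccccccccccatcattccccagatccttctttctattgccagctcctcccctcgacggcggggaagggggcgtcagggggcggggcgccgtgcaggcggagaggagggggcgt
No match was found in any of the 10 windows that the table gives for 6 members, Celsr2, Vangl2, Prickle1, Prickle2, Fat4 and Ptk7. Over all 32851 windows of the same length, 6.75% held TGANTCA and 1.55% held TGACGTCA. Dchs1, Celsr1 and Vangl1 were not searched here. The Celsr2 window has 32 CpG pairs and a GC content of 75.2%, and the Ptk7 window has 14 and 64.0%.

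**Figure D3:**
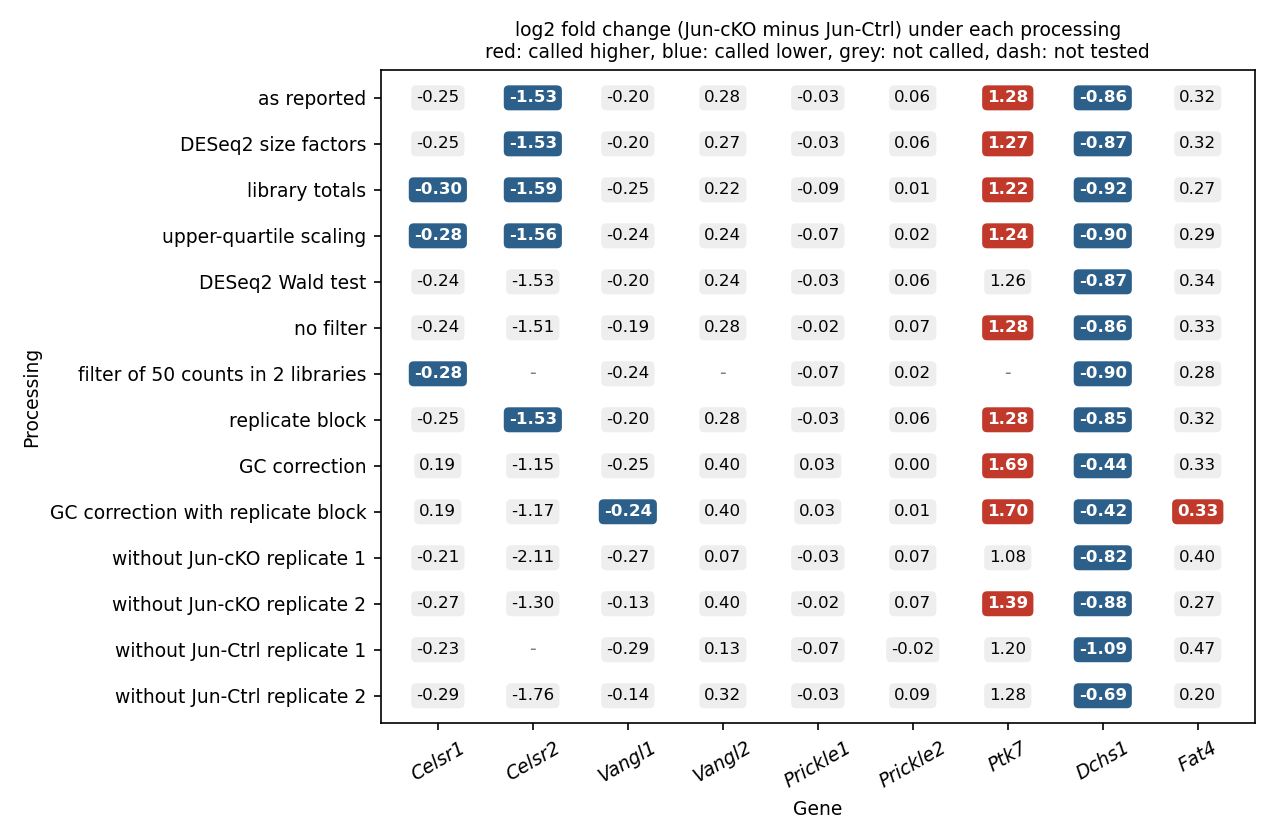
log2 fold change of each gene (columns), Jun-cKO-labelled minus Jun-Ctrl, under each processing (lines), with red boxes for genes called higher, blue boxes for genes called lower, grey boxes for no call and dashes where a gene was not tested. Dchs1 was called lower on each line, between -1.09 and -0.42, and Celsr1 changed sign with the GC correction.

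Other genes of the pathway were read from lists of 35 genes, of which 26 were tested. In the Jun-cKO-labelled group 7 of these rose and 5 fell, or 46.2% called against the background of 41.5%, with a median log2 fold change of -0.06. Celsr3, Prickle4, Fat2, Fat3, Fjx1, Wnt11, Ror1 and Fuz had too few counts to be tested, and Dchs2 had no row under that name among the deposited counts.

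Among 8 tested core genes besides the members, Dvl3 was lower and Ankrd6 higher, or 25% called against the background of 41.5%. Dvl3, which encodes a Dishevelled adaptor downstream of Frizzled, had 1 and 0 counts in the Jun-cKO-labelled libraries, against 100 and 57 counts in the Jun-Ctrl libraries. The ratio of summed counts, Jun-cKO-labelled over Jun-Ctrl, was 0.00666, with an exact binomial interval of 0.000167 to 0.0376 (adjusted p = 3.73e-13 by edgeR). Its paralogues did not pass, Dvl1 with a log2 fold change of -0.17 (SE 0.14) and Dvl2 with -0.25 (SE 0.22). Ankrd6, a vertebrate relative of the fly polarity protein Diego, had 52.3 and 47.7 CPM in Jun-cKO-labelled libraries, against 29.2 and 29.5 CPM in the Jun-Ctrl libraries, a rise of 1.71-fold (adjusted p = 1.31e-05). The calls of Dvl3 and Ankrd6 held under each of 13 alternatives. Fewer genes had a count in the Jun-cKO-labelled libraries, as given above, and these alternatives do not address its part in the Dvl3 counts, which was not tested. The receptors Fzd3 (log2 fold change 0.48, SE 0.24) and Fzd6 (-0.17, SE 0.12), with Prickle3 (0.06) and the scaffold gene Scrib (-0.40, adjusted p = 0.0579), were not called.

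Fat1, the only tested gene of the other Fat and Dachsous genes, fell 1.80-fold to 9.11 and 7.68 CPM in Jun-cKO-labelled libraries, against 15.3 and 15.4 CPM in the Jun-Ctrl libraries (adjusted p = 0.000476 by edgeR), and this call held under each of 13 alternatives. Of 5 tested Wnt ligands, receptors and co-receptors of polarity signalling, the ligand gene Wnt5b was higher and the receptor gene Ror2 lower. That was 40% called, against the background of 41.5%. Wnt5b rose 1.49-fold, with 19.7 and 18.3 CPM in Jun-cKO-labelled and 11.7 and 14.4 CPM in Jun-Ctrl libraries (adjusted p = 0.00808), a call that ended in DESeq2 (0.0894) and without Jun-Ctrl replicate 1 (0.217). GC correction moved the log2 fold change of Wnt5b from 0.58 to 1.04. Ror2, a receptor for Wnt5a, had 14 and 3 counts in Jun-cKO-labelled and 29 and 16 counts in Jun-Ctrl libraries (adjusted p = 0.0165). The Ror2 call held in 6 of 12 alternatives, and ended in DESeq2, with GC correction, with GC correction and the replicate block, and without Jun-cKO-labelled replicate 2, Jun-Ctrl replicate 1 or Jun-Ctrl replicate 2, at adjusted p from 0.082 to 0.168. Wnt5a (log2 fold change -0.28, SE 0.22), Ryk (-0.16, SE 0.12) and Gpc4 (0.29, SE 0.31) were not called.

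Of 12 tested effectors, 5 were higher and 2 lower, or 58.3% called against the background of 41.5%. Daam1 and Daam2 encode formins that link Dishevelled to actin, and they were called in opposite directions. Daam1 rose 1.37-fold (adjusted p = 0.00175), to 127 and 136 CPM in Jun-cKO-labelled libraries, against 103 and 87.2 CPM in Jun-Ctrl libraries, a call that ended without Jun-Ctrl replicate 2 (adjusted p = 0.116). Daam2 had 5 and 1 counts in Jun-cKO-labelled and 60 and 39 counts in Jun-Ctrl libraries, a count ratio of 0.0633 (interval 0.0227 to 0.143, adjusted p = 1.19e-08 by edgeR). Rock1, a kinase that acts on myosin below Rhoa, fell 1.55-fold (-0.63 on the log2 scale, SE 0.12, adjusted p = 3.04e-05), and its paralogue Rock2 was at 0.09 (SE 0.12) with no call. Rac1, a small GTPase, rose 1.39-fold (adjusted p = 0.00215) and Smurf2, a ubiquitin ligase for Prickle, 1.29-fold (0.00847), and both were above in each Jun-cKO-labelled library. The Rac1 call ended at an adjusted p of 0.059 once Jun-Ctrl replicate 1 was left out, and that of Smurf2 without Jun-cKO-labelled replicate 2 (0.0621) or without Jun-Ctrl replicate 1 (0.0669) or 2 (0.148). Intu, a ciliary planar polarity effector, rose 1.66-fold (adjusted p = 0.0345) but kept its call in only 6 of 13 alternatives, and Rhoa, named outside the rule after its value was seen, rose 1.23-fold (adjusted p = 0.0439) and kept its call in 5.

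**Figure D4:**
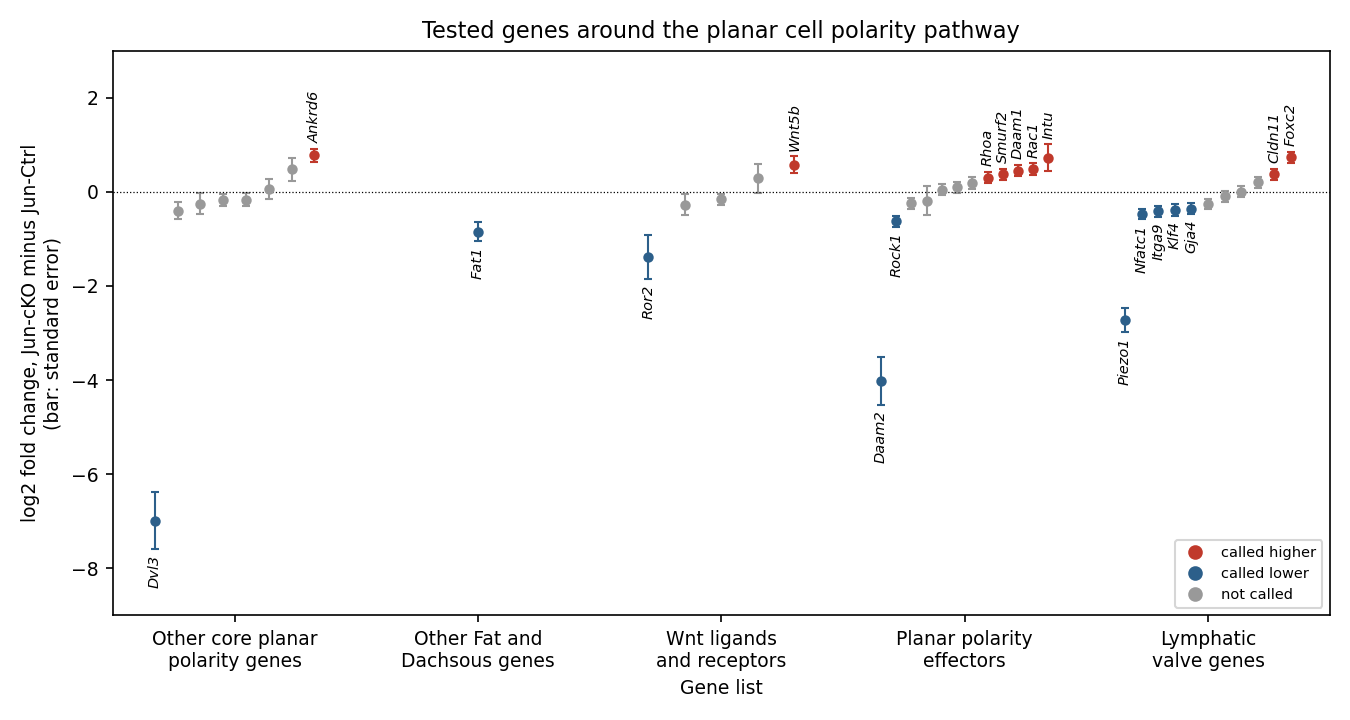
log2 fold change with its standard error, Jun-cKO-labelled minus Jun-Ctrl, for every tested gene of 5 lists around the pathway, with red points for genes called higher, blue for genes called lower and grey for the others. Dvl3 and Daam2 lie far below the rest of their lists, and the fitted position of Dvl3 depends on the prior count because it had 1 count in 2 libraries.

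Of 11 lymphatic valve genes, the setting in which these polarity genes are best known in lymphatic vessels, 2 were higher and 5 lower, or 63.6% called against the background of 41.5%, with a median log2 fold change of -0.26. The valve transcription factor gene Foxc2 rose 1.66-fold, with 232 and 249 CPM in Jun-cKO-labelled and 155 and 133 CPM in Jun-Ctrl libraries (adjusted p = 1.69e-06 by edgeR), and the tight junction gene Cldn11 rose 1.30-fold (0.00738). The mechanosensitive channel gene Piezo1 fell 6.61-fold, with 2.56 and 1.48 CPM in Jun-cKO-labelled and 13.7 and 15.6 CPM in Jun-Ctrl libraries (adjusted p = 3.8e-12). Nfatc1, a transcription factor gene of valves, fell 1.39-fold (adjusted p = 0.000973), the integrin gene Itga9 1.33-fold (0.0037) and the flow-responsive Klf4 1.30-fold (0.0107). Gja4 was the fifth lower gene, and its log2 fold change of -0.36 became 0.09 after GC correction. GC correction moved the log2 fold change of Foxc2 from 0.73 to 1.215. It moved that of Piezo1 from -2.73 to -2.30 and that of Nfatc1 from -0.47 to -0.30. The calls of Foxc2, Piezo1 and Nfatc1 held under each of 13 alternatives. That of Itga9 ended without Jun-Ctrl replicate 2 (adjusted p = 0.0922). That of Cldn11 ended without Jun-cKO-labelled replicate 1 (0.0612) and without Jun-Ctrl replicate 1 (0.0743) or 2 (0.118). That of Klf4 ended with GC correction (0.275, and 0.177 with the block) and without Jun-Ctrl replicate 1 (0.0683) or 2 (0.068).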

How the data were processed

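Amplified RNA (RiboAmp HS PLUS) of sorted lung lymphatic endothelial cells went into NEBNext Ultra II DNA libraries, a kit that leaves strand unmarked, and was read at 79 bases, per the labels' protocols. The series' design text has the cells of 3 replicates of a group mixed ahead of amplification. The authors deposited raw counts of reads for each gene and a length per gene in bases, which was used here only for TPM. The submitters' processing notes list mm10, STAR 2.7.2a, featureCounts 1.6.4 and edgeR 3.28.1, with no roles. Which annotation and strand setting were used is not given in the sources used here.

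The main test was edgeR 4.0.16 under R 4.3.3 (glmQLFit and glmQLFTest, TMM, filterByExpr) on 12656 genes, for Jun-cKO over Jun-Ctrl without a block. A call is a Benjamini-Hochberg adjusted p under 0.05. The SE is the log2 fold change over the root of F. Intervals from this fit are per gene and are not adjusted over the tested genes. The GC correction enters, as an offset, the log2 deviation of a library from the mean, smoothed by loess (span 0.5) over the GC content of each gene's longest GENCODE M21 transcript. The smooth was fitted on genes with a mean log2 CPM above 2. For less abundant genes, such as Celsr2, Vangl2 and Ptk7, the correction is carried over from those genes. Counting intervals and the floor of 3 counts cover counting error only. Alternatives were DESeq2 1.42.0, other scalings and filters, the replicate block, the GC correction and each library left out.

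The members, lists and rule for named genes (each member, up to 4 called genes a direction in each pathway list, untested genes, and the 2 most abundant markers of a cell type with those at 0) were chosen with earlier results of these data known. Fzd3, Fzd6, Prickle3, Scrib, Dvl1, Dvl2, Wnt5a, Ryk, Gpc4, Rock2, Rhoa, Gja4, Tek, Flt4 and Prox1 were named outside that rule, after their values were seen. Libraries of the same group are not copies of each other, since the median chi-square over genes was 1.59 for the Jun-cKO pair and 1.27 for the Jun-Ctrl pair, where sampling alone gives 0.455. The other marker lists gave 4 higher and 3 lower of 9 tested blood endothelial genes (77.8% called), led by Ednrb and Plvap. Aplnr was at 0 in both Jun-cKO libraries. Of 5 pan-endothelial genes, led by Tie1 and Pecam1, Tek was higher and Tie1 lower (40% called), and Pecam1 was not called. Of 3 tested mesothelial genes, Gpm6a was higher and Msln lower (66.7% called), with Lrrn4 at 0 in both Jun-cKO libraries. Lymphatic markers gave 3 higher and 1 lower of 7 tested (57.1% called), where the background over all tested genes was 41.5%.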

Additional observations from a re-analysis of the deposited data

How the results depend on the processing

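Of the 3 called members, Dchs1 alone kept its direction and its call under each of the 13 alternatives that refitted the counts, and Vangl2 kept its direction without a call in the 12 that tested it. The Celsr2 call ended in DESeq2 (log2 fold change -1.53), with no filter (-1.51), with GC correction (-1.15) and with GC correction and the replicate block (-1.17), and the Ptk7 call ended in DESeq2 (1.26). Celsr1 passed with library totals (-0.30), upper-quartile scaling (-0.28) and the filter of 50 counts (-0.28), and reversed with GC correction (0.19, and 0.19 with the block). Prickle1 also reversed there (0.026, and 0.025 with the block), and Gja4 (0.09 both times). With GC correction and block, Vangl1 (-0.24) and Fat4 (0.33) passed. The number of members called was 0 higher and 1 lower in DESeq2 (0 and 1 also at an unadjusted p under 0.05, where edgeR had 2 and 3), 1 lower with no filter, 0 higher with the filter of 50 counts (0 also unadjusted), which left Celsr2, Vangl2 and Ptk7 untested, 1 lower with GC correction, 2 higher with GC correction and block, and 1 lower with a minimum log2 fold change of 1, which Dchs1 (-0.86) did not meet. That minimum left 310 higher and 1360 lower of all genes. Of the listed pathway genes, which in this section include the 11 valve genes, it left 0 higher and 4 lower, against 9 and 10 without it. DESeq2 called 1482 genes higher. Calls over all tested genes also moved with the setting, from 41.5% in the main fit to 23.1% in DESeq2 and 33.3% with no filter. The share was 39.3% with the filter of 50 counts, 39.1% with GC correction and 44% with GC correction and block. The order of the members by TPM kept 5 of 9 ranks when counts were not divided by length.

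Leaving out 1 library at a time, the log2 fold change ranged from -2.11 to -1.30 for Celsr2, from 1.08 to 1.39 for Ptk7, from -1.09 to -0.69 for Dchs1 and from -0.021 to 0.093 for Prickle2, which reversed without Jun-Ctrl replicate 1. The members called ranged from 0 to 1 higher (1 in each such fit at an unadjusted p under 0.05) and stood at 1 lower throughout. All genes called ranged from 1177 to 2214 higher and from 1815 to 2656 lower, the lowest without Jun-Ctrl replicate 1, and listed pathway genes from 3 to 8 higher and from 6 to 10 lower, against 9 and 10 with all libraries. Such fits leave a group with 1 library, which is assumed to vary like the other group.

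The replicate block, which enters the title's word replicate as a term, gave 1 member higher and 2 lower, the same counts as without it. The deviations of libraries with the same mark correlated at 0.073, and the labels give no shared animal, so the block is not taken as a pairing. Counts limit Celsr2, Ptk7 and Vangl2, the members with the fewest reads. The causes of these changes were not tested beyond what each alternative alters.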
